A study of Rattus norvegicus with 8 samples.

Results

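The genes described here belong to sterol, fatty acid and glycerolipid synthesis. Many genes of these pathways are driven by the sterol regulatory element-binding proteins (SREBPs). The SREBP genes themselves and genes of the proteins that control them are included. Whether each listed gene is an SREBP target in these livers was not tested. They were given as a list of 41 gene symbols, and a gene was taken as measured where a probe set on the array carried its symbol and no other. This left 39 of the 41 genes, of 14511 named genes on the array: 15 of sterol synthesis, 5 regulators and sterol carriers, 12 of fatty acid synthesis and 7 of glycerolipid synthesis. The probe set of Srebf1 is annotated to Pemt as well and was not used, and Hmgcs1 was not analysed here. Where several probe sets carried a symbol the one with the highest mean was used, which concerned Insig1 alone among these genes.

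Isolated livers of male Wistar rats aged 6 to 10 weeks were perfused with a bicarbonate-buffered salt solution, Krebs-Henseleit buffer, whose osmolarity was either 305 mosm/L (normoosmotic) or was lowered to 225 mosm/L (hypoosmotic). In the dilute buffer liver cells take up water and swell. RNA of whole liver taken at 180 min was hybridised to Affymetrix whole-transcript arrays, 4 per group, and the comparison asks how transcript levels differ between the buffers. Whether each liver came from its own animal is not stated in the labels, so the p-values below refer to the spread among these 8 samples, and this spread may be technical.

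SREBPs are made as precursors in the membrane of the endoplasmic reticulum, bound to the escort protein Scap. When membrane sterol is plentiful, the Insig proteins hold the Scap and SREBP complex there. When it falls, Scap carries the SREBP to the Golgi, where proteases release the part that enters the nucleus and activates its target genes. In liver the product of Srebf2 acts mainly on sterol synthesis, and the liver form made from Srebf1, which insulin induces, acts mainly on fatty acid and glycerolipid synthesis.

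All values are log2 intensities as deposited, and changes are given on that scale as hypoosmotic minus normoosmotic means. A gene passed the test where its adjusted p was under 0.05 (limma, Benjamini-Hochberg over all 14511 genes). By this test 7.07% of all genes passed, 2.45% higher and 4.62% lower in hypoosmotic livers. These were 356 and 670 genes, or 235 and 733 once each array was centred on its median. Of the 39 lipid synthesis genes 4 passed, or 10.3%, 2 higher and 2 lower, and all 4 belonged to glycerolipid synthesis. The median change of the 39 genes was -0.01, beside 0.01 over all genes. For 5 of the 39 genes, or 12.8%, the values of the 2 buffers did not overlap, beside 13.5% of all genes. None of the 39 levels was near background, which was set at 3.37 from 53 odorant receptor genes. Array medians lay between 3.92 and 4.05, and the hepatocyte markers were abundant, with Alb (albumin) between 12.95 and 13.16 on all arrays. In whole liver, fewer cells of a type and less RNA per cell cannot be told apart.

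**Figure D1:**
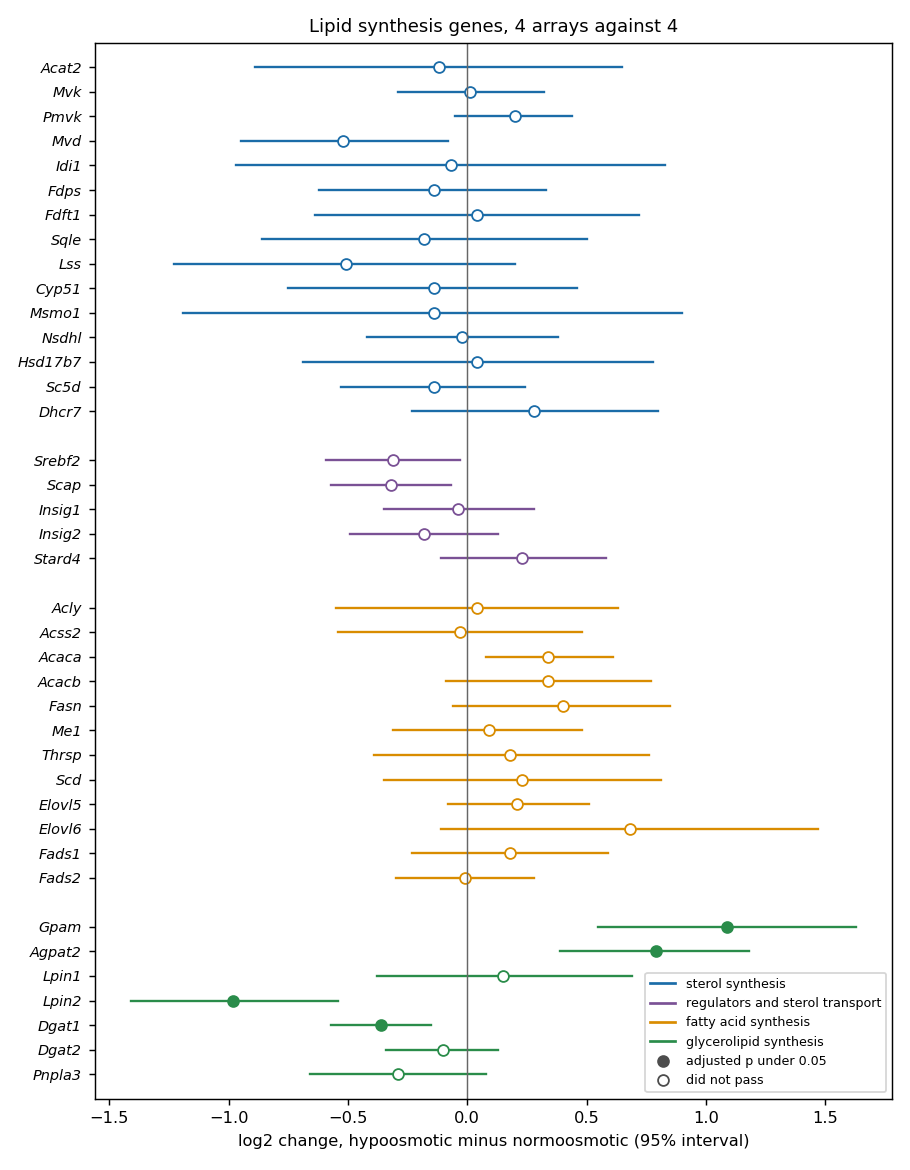
Log2 change, hypoosmotic minus normoosmotic, of each of the 39 lipid synthesis genes by branch, with its 95% confidence interval from limma. Filled points mark the 4 genes that passed, Gpam and Agpat2 to the right of 0 and Lpin2 and Dgat1 to the left, all in the glycerolipid branch. The sterol genes lie between -0.52 and 0.28 with intervals that are wide for most of them.

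The sterol synthesis genes, which encode the enzymes from acetoacetyl-CoA and mevalonate to cholesterol, showed no called difference between the buffers, but they varied widely between arrays of the same buffer. None of the 15 passed the test (limma), and 1, Mvd, had an unadjusted p under 0.05, beside 2999 of all 14511 genes. Their changes ran from -0.52 to 0.28 with a median of -0.12. Of the 15, 10 were below 0, beside 6724 of all 14511 genes. In 0 of 15 did the groups separate, beside 13.5% of all genes. In all 15 genes the lowest normoosmotic array was replicate 4, an array that was the lowest of its group for 26.6% of all genes. In 12 of the 15 the highest hypoosmotic array was replicate 3, against 28.1% of all genes. Hypoosmotic replicate 4 was the lowest of its group in 8 of the 15, against 25.3% of all genes.

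Msmo1, the sterol C4-methyl oxidase, had the widest normoosmotic spread of the branch. It read 10.06, 8.77, 9.86 and 7.60 on normoosmotic arrays 1 to 4 and 8.62, 8.45, 9.75 and 8.89 on hypoosmotic arrays 1 to 4. The normoosmotic arrays lay on both sides of the hypoosmotic ones, with replicates 1 and 3 above and replicate 4 below all 4 of them. The means were 9.07 ± 1.13 (SD, n = 4) and 8.93 ± 0.58 (SD, n = 4), and the change of -0.14 ± 0.48 (SE) had a 95% interval from -1.19 to 0.90 and an adjusted p of 0.917 (limma). That interval leaves room for a change of about 1 in the negative direction and nearly as much in the positive one, so a difference of that size was not detectable with 4 arrays per group.

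Idi1, the isopentenyl diphosphate isomerase, read 8.85, 7.82, 8.84 and 6.60 on the normoosmotic arrays and 7.72, 7.83, 8.15 and 8.12 on the hypoosmotic arrays. Normoosmotic replicates 1 and 3 were again the highest of the 8 and replicate 4 the lowest, while the hypoosmotic arrays lay within 0.43 of each other. The SD was 1.07 in normoosmotic and 0.21 in hypoosmotic livers, and the change was -0.07 ± 0.41 (SE, limma adjusted p = 0.956).

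Mvd, the mevalonate diphosphate decarboxylase, had the smallest p of the branch. It read 5.41, 4.93, 5.64 and 4.86 on the normoosmotic arrays and 4.87, 4.53, 5.02 and 4.35 on the hypoosmotic arrays. The 2 lowest values were hypoosmotic, but the other hypoosmotic arrays lay among the normoosmotic ones. Its change was -0.52 ± 0.20 (SE, 95% interval -0.95 to -0.08, limma adjusted p = 0.157). Lss, the lanosterol synthase, had a change of nearly the same size, -0.51 ± 0.32 (SE, adjusted p = 0.437), with overlapping groups.

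Pmvk, the phosphomevalonate kinase, had the narrowest normoosmotic spread of the branch. It read 6.40, 6.63, 6.53 and 6.29 on the normoosmotic arrays and 6.62, 6.67, 6.82 and 6.52 on the hypoosmotic arrays. The groups overlapped, with a change of 0.20 ± 0.11 (SE, limma adjusted p = 0.376). Dhcr7, the last reductase of the pathway, had the highest change of the branch, 0.28 ± 0.24 (SE, adjusted p = 0.584). The remaining 9 genes (Acat2, Mvk, Fdps, Fdft1, Sqle, Cyp51, Nsdhl, Hsd17b7 and Sc5d) had changes between -0.18 and 0.04 and adjusted p-values from 0.729 to 0.976.

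The shared array order of the branch can be given as its mean deviation, the average over the 15 genes of each array's distance from the mean of the 8 arrays. It was 0.53, -0.08, 0.47 and -0.73 on normoosmotic arrays 1 to 4 and -0.10, -0.14, 0.25 and -0.20 on hypoosmotic arrays 1 to 4. The normoosmotic arrays thus held both extremes, and the hypoosmotic arrays lay between them. The SD was wider in normoosmotic livers for 15 of 15 sterol genes, beside 40.4% of all genes and 39% of the 9905 genes above background. The median SD of the branch was 0.64 in normoosmotic and 0.28 in hypoosmotic livers. Of the genes above background 1.04% had an SD of at least 0.64 in normoosmotic livers and 24.7% had one of at least 0.28 in hypoosmotic livers. This difference in spread was not tested.

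The sign of the branch median depended on which arrays were used. Without normoosmotic replicate 4 it was -0.39, with 13 of 15 genes below 0, and without hypoosmotic replicate 3 it was -0.21, with 12 below 0. Without normoosmotic replicate 1 it was 0.08 and without normoosmotic replicate 3 it was 0.06. It was -0.14 without normoosmotic replicate 2 and between -0.07 and -0.03 without hypoosmotic replicate 1, 2 or 4. Without both normoosmotic replicate 4 and hypoosmotic replicate 3, a choice made after seeing the data, the median was -0.46, with 14 of 15 genes below 0. In none of these 9 fits did a sterol gene pass (limma).

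The summed hepatocyte, blood cell, adipocyte and cholangiocyte markers also had normoosmotic replicate 4 at one end of its group, and the Kupffer cell, endothelial and stellate cell markers did not. The adipocyte sum was 31.85 on replicate 4 and 30.40 to 31.74 on the other normoosmotic arrays. The cholangiocyte sum was 23.59 against 22.88 to 23.24. Of these genes 2 of 8 and 3 of 6 were near background. Among normoosmotic arrays the summed Kupffer cell markers were lowest on replicate 3, at 60.64, and were 64.28 on replicate 4. The summed endothelial markers were lowest on replicate 1, at 42.35, and were 43.06 on replicate 4. The summed log2 level of the 10 hepatocyte markers was 115.37 there and 117.02 to 117.52 on the other normoosmotic arrays. It was 115.60 to 117.60 on the hypoosmotic arrays, and 0 of the 10 markers passed the test. Normoosmotic replicate 4 was the lowest of its group for 6 of the 10. Hnf4a read 7.92 on that array and 8.49 to 8.66 on the other normoosmotic arrays, and Tat read 10.27 against 10.62 to 11.12. Alb read 13.12 against 13.07 to 13.16. Hbb, a haemoglobin chain gene that marks red blood cells, read 5.64, 6.57, 7.44 and 8.75 on normoosmotic arrays 1 to 4, with replicate 4 again at one end, and 6.98 to 7.45 on the hypoosmotic arrays. The summed blood cell markers, 5 of whose 7 genes were near background, were 28.82 on normoosmotic replicate 4 and 25.51 to 26.75 on the other 3 arrays, and 26.28 to 27.67 on the hypoosmotic arrays. The part of these differences in the sterol genes' spread was not tested.

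**Figure D2:**
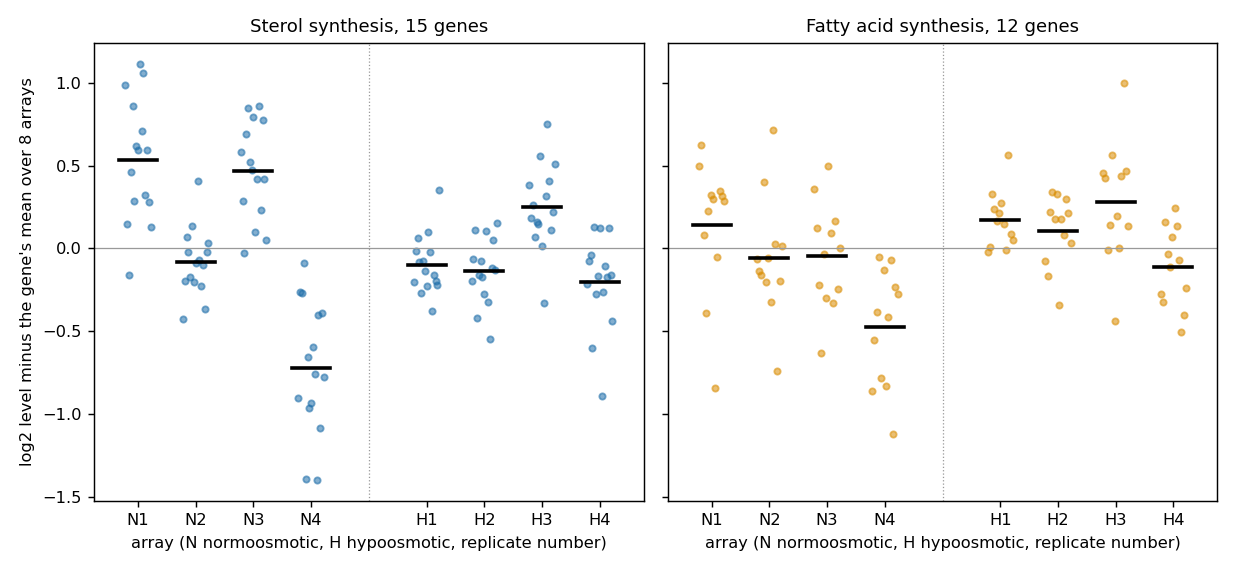
Deviation of each gene from its own mean over the 8 arrays (log2) on each array (N1 to N4 normoosmotic, H1 to H4 hypoosmotic), with 1 point per gene and the mean over the genes as a bar, for the 15 sterol genes (left) and the 12 fatty acid genes (right). The sterol bars span -0.73 to 0.53 on the normoosmotic arrays and -0.20 to 0.25 on the hypoosmotic arrays, and the fatty acid bars are lowest on N4 at -0.48.

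**Figure D3:**
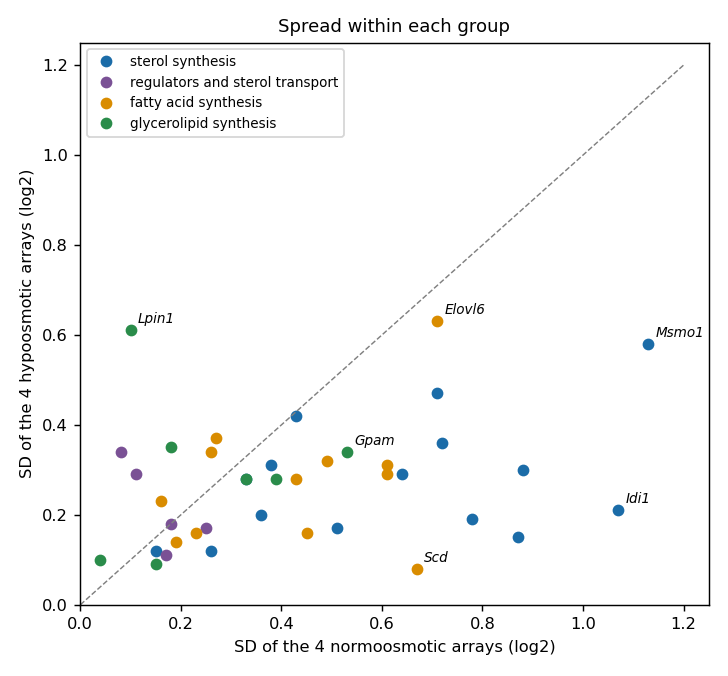
SD of each lipid synthesis gene over the 4 hypoosmotic arrays (vertical axis, log2) against its SD over the 4 normoosmotic arrays (horizontal axis, log2). All 15 sterol genes lie on the side of the wider normoosmotic spread, with Msmo1 at 1.13 and Idi1 at 1.07 on the normoosmotic axis.

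Promoter windows are shown for 4 of the genes because they set a sterol gene with a wide spread between arrays (Msmo1) and the retention factor Insig1 beside a glycerolipid gene that rose (Gpam) and one that fell (Lpin2). Each is the 250 bases before the RefSeq start on GRCr8, read 5′ to 3′ on the gene's strand. Msmo1 lies at chr16:29746863-29747112 on the plus strand, Insig1 at chr4:8057770-8058019 on the minus strand, Gpam at chr1:264175912-264176161 on the minus strand and Lpin2 at chr9:118530105-118530354 on the plus strand. Capitals mark matches, on either strand, to the motifs TCACNCCAC (one form of the sterol regulatory element), CACGTG (E-box), CCAAT (bound by NF-Y) and GGGCGG (GC box, bound by Sp1). NF-Y and Sp1 are known partners of SREBPs at many of their target promoters.
Msmo1: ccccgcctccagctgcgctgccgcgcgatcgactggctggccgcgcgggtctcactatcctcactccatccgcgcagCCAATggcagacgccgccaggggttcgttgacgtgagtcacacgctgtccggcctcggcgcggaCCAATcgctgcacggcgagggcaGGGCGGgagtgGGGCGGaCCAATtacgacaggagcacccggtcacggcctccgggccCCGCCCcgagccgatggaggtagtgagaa
Insig1: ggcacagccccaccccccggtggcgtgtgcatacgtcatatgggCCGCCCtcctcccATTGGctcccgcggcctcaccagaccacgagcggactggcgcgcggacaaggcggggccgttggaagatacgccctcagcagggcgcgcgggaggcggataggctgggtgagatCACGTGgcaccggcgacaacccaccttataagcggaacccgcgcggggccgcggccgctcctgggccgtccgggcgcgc
Gpam: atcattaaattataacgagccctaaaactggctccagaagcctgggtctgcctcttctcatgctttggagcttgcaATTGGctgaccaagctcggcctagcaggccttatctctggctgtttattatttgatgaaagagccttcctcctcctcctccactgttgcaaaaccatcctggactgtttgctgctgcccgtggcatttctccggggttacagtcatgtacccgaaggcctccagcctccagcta
Lpin2: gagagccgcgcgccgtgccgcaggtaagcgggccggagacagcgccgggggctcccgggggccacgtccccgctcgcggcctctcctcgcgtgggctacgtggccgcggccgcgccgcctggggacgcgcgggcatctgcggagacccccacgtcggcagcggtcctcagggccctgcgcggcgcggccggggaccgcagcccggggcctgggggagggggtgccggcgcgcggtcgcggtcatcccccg
The Msmo1 window held 3 CCAAT matches, at 173, 109 and 68 bases before the start, and 3 GC boxes, at 86, 75 and 29. The Insig1 window held 1 E-box, 1 CCAAT match on the other strand and 1 GC box. The Gpam window held 1 CCAAT match on the other strand, and the Lpin2 window held none of the 4 motifs.

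Windows were found for 30 of the 39 genes, 12 of them sterol genes. The strict sterol element TCACNCCAC was in 0 of the 30, beside 0.976% of the windows of 27457 genes, which says only that these letters are not in these windows. CCAAT was in 21 of the 30 and in 9 of the 12 sterol genes, beside 34.3% of the 27457 genes. GGGCGG was in 21 of the 30 and in 10 of the 12 sterol genes, beside 32.4% of the 27457. CACGTG was in 4 of the 30, beside 5.79% of the 27457. Those 27457 genes were not limited to genes measured or above background here. They were not matched to the 30 by base content either, so these shares do not show a trait of SREBP targets. Matches of different motifs were counted separately even where they overlapped, and a match describes the sequence and is not a binding site.

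Srebf2, the regulators that decide whether SREBPs reach the nucleus and the sterol carrier Stard4 showed no called difference. None of the 5 measured passed (limma), and 2 had an unadjusted p under 0.05, beside 2999 of all 14511 genes. The changes of Scap, Srebf2, Insig2 and Insig1 ran from -0.32 to -0.04, and that of Stard4 was 0.23. Scap, the escort protein, read 7.73, 7.36, 7.40 and 7.43 on the normoosmotic arrays and 7.20, 7.16, 7.27 and 7.01 on the hypoosmotic arrays. All 4 hypoosmotic values lay below the normoosmotic ones, the only such separation outside glycerolipid synthesis among the 39 genes. The change was -0.32 ± 0.11 (SE, 95% interval -0.57 to -0.07, limma adjusted p = 0.126).

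Srebf2, the sterol-directed SREBP gene, read 6.84, 6.80, 6.94 and 6.51 on the normoosmotic arrays and 6.59, 6.61, 6.41 and 6.23 on the hypoosmotic arrays. Its groups overlapped only through normoosmotic replicate 4, the array on which all sterol genes were lowest in their group. The change was -0.31 ± 0.13 (SE, limma adjusted p = 0.185).

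The retention factors had overlapping groups. Insig1, itself a target of SREBPs, read 10.77, 10.84, 11.00 and 10.76 on the normoosmotic arrays and 10.54, 10.69, 11.21 and 10.79 on the hypoosmotic arrays, with both the lowest and the highest of the 8 in hypoosmotic livers. Its change was -0.04 ± 0.14 (SE, 95% interval -0.35 to 0.28, limma adjusted p = 0.935), and its second probe set gave -0.09. Insig2, whose liver transcript is known to be lowered by insulin, read 10.52, 10.99, 10.58 and 10.97 against 10.33, 10.62, 10.68 and 10.71. The change of Insig2 was -0.18 ± 0.14 (SE, adjusted p = 0.558), with overlapping groups.

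Stard4, a cytosolic sterol carrier, read 4.89, 4.95, 4.97 and 4.79 on the normoosmotic arrays and 4.90, 4.97, 5.64 and 5.03 on the hypoosmotic arrays. Only hypoosmotic replicate 3, the highest hypoosmotic array in most sterol genes, stood clear of the rest. The change of 0.23 ± 0.15 (SE, limma adjusted p = 0.459) was 0.07 without that array.

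Fatty acid synthesis genes had mostly positive changes, but none of the 12 passed the test (limma). Of the 12, 1, Acaca, had an unadjusted p under 0.05, beside 2999 of all 14511 genes. In 10 of the 12 the change was above 0, beside 7787 of all 14511 genes. The changes had a median of 0.20, beside 0.01 over all genes, and a range from -0.03 to 0.68. The median lay between 0.13 and 0.25 when each array was left out in turn. Without both normoosmotic replicate 4 and hypoosmotic replicate 3 it was 0.10, with 4 of 12 genes below 0. In 0 of the 12 did the groups separate, beside 13.5% of all genes.

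Acaca, the acetyl-CoA carboxylase that makes malonyl-CoA for fatty acid synthesis, read 6.57, 6.33, 6.27 and 6.11 on the normoosmotic arrays and 6.82, 6.71, 6.48 and 6.65 on the hypoosmotic arrays. The groups met only where hypoosmotic replicate 3 fell below normoosmotic replicate 1. Its change was 0.34 ± 0.12 (SE, 95% interval 0.08 to 0.61, limma adjusted p = 0.127). Acacb, the carboxylase linked to the control of fatty acid oxidation, had the same change, 0.34 ± 0.19 (SE, adjusted p = 0.374).

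Fasn, the fatty acid synthase, read 6.43, 6.00, 6.17 and 5.42 on the normoosmotic arrays and 6.37, 6.38, 6.77 and 6.09 on the hypoosmotic arrays. Normoosmotic replicate 4 was the lowest of the 8 arrays and hypoosmotic replicate 3 the highest. The change was 0.40 ± 0.21 (SE, limma adjusted p = 0.318), and without normoosmotic replicate 4 it was 0.20.

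Elovl6, the elongase of palmitate, had the highest change of the branch. It read 6.41, 5.32, 6.23 and 4.94 on the normoosmotic arrays and 6.63, 6.36, 7.06 and 5.56 on the hypoosmotic arrays. Within each buffer replicate 4 was the lowest, and the groups overlapped. The change was 0.68 ± 0.36 (SE, 95% interval -0.11 to 1.47, limma adjusted p = 0.329).

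Scd, the stearoyl-CoA desaturase that makes monounsaturated fatty acids, read 9.66, 11.22, 10.60 and 10.09 on the normoosmotic arrays and 10.65, 10.68, 10.51 and 10.64 on the hypoosmotic arrays. Its normoosmotic values spread on both sides of a tight hypoosmotic cluster, as those of Idi1 did, but in another array order, with replicate 1 the lowest and replicate 2 the highest. The SD was 0.67 and 0.08, and the change was 0.23 ± 0.26 (SE, limma adjusted p = 0.718).

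The other 7 genes of the branch had changes from -0.03 for Acss2, which makes acetyl-CoA from acetate, to 0.21 for Elovl5, an elongase of polyunsaturated fatty acids. Acly, the ATP citrate lyase, stood at 0.04 and Me1, a source of NADPH, at 0.09. Thrsp, a lipogenic protein induced by thyroid hormone, stood at 0.18, and the desaturases Fads1 and Fads2 stood at 0.18 and -0.01. None of these 7 had an adjusted p under 0.423 (limma).

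The array order of the sterol genes recurred in part in this branch. The mean deviation from the 8 arrays was 0.14, -0.06, -0.04 and -0.48 on the normoosmotic arrays and 0.17, 0.11, 0.28 and -0.11 on the hypoosmotic arrays. Normoosmotic replicate 4 was the lowest of its group in 7 of 12 genes and hypoosmotic replicate 3 the highest in 7 of 12. Hypoosmotic replicate 4 was the lowest of its group in 8 of 12. The SD was wider in normoosmotic livers in 9 of 12 genes, with medians of 0.44 and 0.29.

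Glycerolipid synthesis was the branch in which genes passed. Gpam and Agpat2, which carry out successive acylations of glycerol 3-phosphate, rose in hypoosmotic livers, while Lpin2, which removes the phosphate of phosphatidic acid, and Dgat1, which adds the last acyl chain of triacylglycerol, fell. These were 4 of 7 genes, or 57.1%, beside 7.07% of all genes, and in all 4 the groups separated. The median over the 7 was -0.10, since the changes ran both ways.

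Gpam, the mitochondrial glycerol-3-phosphate acyltransferase that starts the pathway, read 6.06, 7.08, 6.50 and 7.20 on the normoosmotic arrays and 7.78, 7.79, 8.23 and 7.40 on the hypoosmotic arrays. Every hypoosmotic value lay above every normoosmotic one, the nearest pair being replicate 4 of each group. The mean went from 6.71 ± 0.53 (SD, n = 4) to 7.80 ± 0.34 (SD, n = 4), a change of 1.09 ± 0.25 (SE, 95% interval 0.55 to 1.63) or 2.13-fold, with an adjusted p of 0.0249 (limma).

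Agpat2, the acyltransferase that makes phosphatidic acid, read 6.57, 7.13, 7.14 and 7.34 on the normoosmotic arrays and 7.64, 7.99, 8.14 and 7.55 on the hypoosmotic arrays. The order of the arrays was like that of Gpam, with normoosmotic replicate 1 the lowest, hypoosmotic replicate 3 the highest and no overlap. The mean went from 7.04 ± 0.33 (SD, n = 4) to 7.83 ± 0.28 (SD, n = 4), a change of 0.79 ± 0.18 (SE) or 1.72-fold, with an adjusted p of 0.0268 (limma).

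Lpin2, a phosphatidic acid phosphatase of liver, read 8.72, 8.23, 8.99 and 8.17 on the normoosmotic arrays and 7.25, 7.39, 7.86 and 7.70 on the hypoosmotic arrays. All hypoosmotic values lay below all normoosmotic ones. The mean went from 8.53 ± 0.39 (SD, n = 4) to 7.55 ± 0.28 (SD, n = 4), a change of -0.98 ± 0.20 (SE, 95% interval -1.41 to -0.54) or 1.97-fold lower, with an adjusted p of 0.0157 (limma).

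Lpin1, the paralogue that fasting and glucocorticoids are known to induce, read 6.80, 6.88, 7.01 and 6.99 on the normoosmotic arrays and 6.50, 6.87, 7.94 and 6.98 on the hypoosmotic arrays. Hypoosmotic replicates 1 and 3 were the lowest and highest of the 8, and the other arrays lay close together. The SD was 0.10 in normoosmotic and 0.61 in hypoosmotic livers, and the change was 0.15 ± 0.24 (SE, limma adjusted p = 0.81). That Lpin1 and Lpin2 differed in their change was not tested.

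Dgat1, one of the diacylglycerol acyltransferases, read 6.29, 6.31, 6.29 and 6.37 on the normoosmotic arrays and 6.11, 5.89, 5.90 and 5.92 on the hypoosmotic arrays. The groups were tight and did not overlap, with hypoosmotic replicate 1 nearest to the normoosmotic arrays. The mean went from 6.32 ± 0.04 (SD, n = 4) to 5.96 ± 0.10 (SD, n = 4), a change of -0.36 ± 0.10 (SE) or 1.28-fold lower, with an adjusted p of 0.0452 (limma). Dgat2, which makes triacylglycerol by an unrelated enzyme, had a change of -0.10 ± 0.11 (SE, adjusted p = 0.676). Pnpla3, a lipid droplet protein and SREBP target, had a change of -0.29 ± 0.17 (SE, adjusted p = 0.382).

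These 4 calls differed in how far they rested on single arrays. Lpin2 passed whichever single array was left out, with 8 adjusted p-values from 0.0151 to 0.0483 (limma). Gpam passed in 3 of 8, with a highest adjusted p of 0.0763 without normoosmotic replicate 3, and Agpat2 in 3 of 8, with a highest of 0.0759 without hypoosmotic replicate 2. Dgat1 passed in 1 of 8, with a highest adjusted p of 0.111 without hypoosmotic replicate 2, and it missed the threshold with array weights (0.0545), an intensity trend (0.0587), all probe sets tested together (0.064) and a further quantile normalization (0.0657). Against a minimum fold change of 1.2 none of the 4 passed, with adjusted p-values of 0.128 for Lpin2, 0.164 for Gpam, 0.252 for Agpat2 and 1 for Dgat1 (limma treat). The number of calls in the branch was 1 without normoosmotic replicate 1 or 3 or hypoosmotic replicate 2 or 3, 2 without normoosmotic replicate 2, and 3 without any other array. Without both normoosmotic replicate 4 and hypoosmotic replicate 3 it was 2, Gpam and Lpin2.

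The called changes were set beside markers of the other cell types that liver tissue can hold. Of 8 adipocyte markers 1 rose (Fabp4, by 0.94 ± 0.21 SE, limma adjusted p = 0.0242) and 1 fell (Pparg, -1.21 ± 0.23 SE, adjusted p = 0.0122), and the defining markers Adipoq and Lep were near background. The summed adipocyte markers ranged from 30.40 to 31.85 in normoosmotic and from 30.58 to 32.07 in hypoosmotic livers. Of 6 endothelial markers 1 rose (Kdr, a receptor of vascular endothelial growth factor, 0.66 ± 0.15 SE, adjusted p = 0.028), and the summed endothelial markers ranged from 42.35 to 43.54 and from 43.83 to 46.22, without overlap. The calls were 25% of the adipocyte and 16.7% of the endothelial markers, beside 7.07% of all genes. In the 8 fits on 7 arrays Pparg passed in 8, Fabp4 in 3 and Kdr in 2. None of the 10 Kupffer cell, 10 stellate cell, 6 cholangiocyte or 7 blood cell markers measured passed. The part of the endothelial difference in the called changes was not tested.

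**Figure D4:**
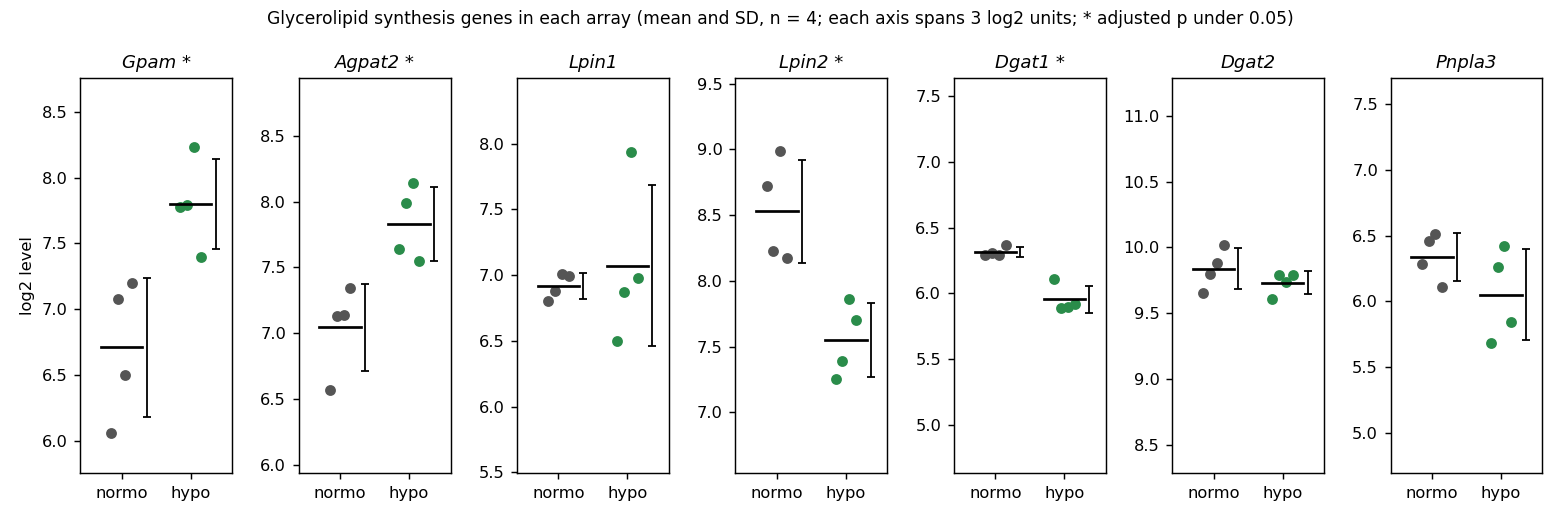
Log2 level of each of the 7 glycerolipid synthesis genes on the 4 normoosmotic and 4 hypoosmotic arrays, one panel per gene, with the group mean as a bar and the SD beside it, and an asterisk for the genes that passed. Gpam and Agpat2 are higher on every hypoosmotic array, Lpin2 and Dgat1 are lower on every one, and Lpin1, Dgat2 and Pnpla3 overlap.

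Further genes of the same pathways were read from 6 lists. Of 14 other genes of sterol synthesis, storage and uptake none passed (limma), 2 had an unadjusted p under 0.05 and the median change was 0.07. Over all 14511 genes 2999 had an unadjusted p under 0.05. The smallest p was that of Soat2, which esterifies cholesterol in hepatocytes, at 0.32 ± 0.10 (SE, adjusted p = 0.0913). Of 12 other genes that process or degrade parts of the SREBP machinery none passed and 1 had an unadjusted p under 0.05, Rnf145, a ubiquitin ligase that in mice acts on Scap, at -0.34 ± 0.15 (SE, adjusted p = 0.222).

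Of 13 genes of the liver X receptors (LXR) and sterol efflux 1 rose, Abca2, a transporter of the endosomal and lysosomal membrane, by 0.59 ± 0.15 (SE, limma adjusted p = 0.0376), a share of 7.69% beside 7.07% of all genes. The groups of Abca2 overlapped, and it passed in 2 of the 8 fits on 7 arrays, with a highest adjusted p of 0.105 without normoosmotic replicate 3. The median of that list was 0.14. Of 20 other genes of fatty acid synthesis 1 rose, a share of 5%. This was Tecr, the last reductase of the elongation cycle, by 0.44 ± 0.11 (SE, limma adjusted p = 0.0361). Tecr passed in none of the 8 fits on 7 arrays.

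The activity of AMP-activated protein kinase is known to restrain fatty acid and sterol synthesis. Of 9 genes of this kinase and of proteins upstream of it, 1 rose and 1 fell. This was a share of 22.2%, beside 7.07% of all genes. Prkaa2, a catalytic subunit, rose by 0.50 ± 0.12 (SE, limma adjusted p = 0.0331), but it passed in 3 of the 8 fits on 7 arrays, with a highest adjusted p of 0.0962 without normoosmotic replicate 3. Cab39, a partner of the upstream kinase Stk11, had a change of -0.73 ± 0.11 (SE, adjusted p = 0.00646) and passed whichever single array was left out.

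Of 29 other genes of glycerolipid synthesis and storage 3 rose and none fell, with a median change of 0.17 and 23 of 29 above 0. Agpat3, a further acyltransferase of lysophosphatidic acid, rose by 0.49 ± 0.12 (SE, limma adjusted p = 0.0285). Bscl2, which encodes the lipid droplet protein seipin, rose by 0.41 ± 0.11 (SE, adjusted p = 0.0395). Cds2, which turns phosphatidic acid into CDP-diacylglycerol for phospholipid synthesis, rose by 0.47 ± 0.12 (SE, adjusted p = 0.0445). They passed in 2, 1 and 0 of the 8 fits on 7 arrays. The share of calls in this list was 10.3%, beside 7.07% of all genes.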

How the data were processed

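The table the authors deposited holds log2 values of 27596 probe sets on 8 arrays. The tools in the submitters' processing notes are RMA, Affymetrix Expression Console and Transcriptome Analysis Console 4.0, in no given order. RMA equalises array distributions and so takes out any shift common to most genes. The array's probe masking and genome build were not given in the sources used here. Scanner files and scan batches were not used here.

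Probe set names came from the platform's 2016 annotation, updated through a RefSeq gene table: 15316 had 1 symbol, 317 several, and 11963 were not named here. The probe set with the highest mean stood for each of 14511 genes. Groups and replicate numbers came from the sample titles. The groups were compared by limma 3.58.1 under R 4.3.3 (functions lmFit and eBayes, no covariate, two-sided, Benjamini-Hochberg over all genes, threshold 0.05), and the fit was tested on simulated data. The precision is limited by 4 arrays per group. Near background means no higher than the 95th percentile over 53 odorant receptor genes. Promoter windows are RefSeq's on GRCr8, 1 per gene, matched by symbol. Tables and plots used Python 3.11.15, pandas 2.3.3 and matplotlib 3.10.9.

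The genes, the lists and the alternatives were chosen with earlier results of these data known. Values on all 8 arrays are given for genes that passed, the measured SREBP regulators, and in each branch the 2 smallest p-values and the 2 widest spreads. The other genes are given by their changes. Of the further lists, the genes that passed or had the smallest p are named, and of the marker lists those that passed. Alb, Hnf4a, Tat, Adipoq, Lep, Hbb and, in the closing section, Abcg5 and Abcg8 were named after their values were seen. Alternatives tried were a replicate block, array weights, robust variances with an intensity trend, another round of quantile normalization, arrays centred on their medians, dropping the dimmest 30% of genes, probe sets averaged or all tested together, limma treat at a fold of 1.2, and omission of each array in turn. Leaving out normoosmotic replicate 4 and hypoosmotic replicate 3 together was added after seeing the data.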

Additional observations from a re-analysis of the deposited data

Results flagged for a closer look

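In each group of 4 arrays the gap between an extreme array and its nearest neighbour was divided by the range of the group, and a ratio above Dixon's 95% critical value was taken as an outlying array. Of the 102 groups tested 9 were above it, or 8.82%, where chance gives about 1 in 20. The genes are not independent, since several share the array order of the sterol branch.

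Hypoosmotic replicate 3 stood above its group for 3 sterol genes. Acat2 read 6.82 there and 6.22 to 6.24 on the other 3 arrays, Fdft1 read 9.06 against 8.33 to 8.37, and Nsdhl read 9.66 against 9.08 to 9.13. Normoosmotic replicate 4 stood below its group for Dhcr7, at 7.55 against 8.36 to 8.46.

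Among fatty acid genes, Thrsp read 10.21 on hypoosmotic replicate 2 against 10.75 to 10.83, and Fads1 read 10.38 on normoosmotic replicate 1 against 9.82 to 9.87. Dgat1, which fell, read 6.11 on hypoosmotic replicate 1 against 5.89 to 5.92, and this array was the nearest to the normoosmotic ones. Outside the 39 genes, Soat2 read 6.85 on hypoosmotic replicate 1 against 6.56 to 6.60, and Fabp4 read 4.45 on normoosmotic replicate 2 against 3.82 to 3.86.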

How the results depend on the processing

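Over all 14511 genes 1026 passed and among the 39 lipid synthesis genes 4. Leaving out 1 array in turn gave 468 to 1051 genes, 1 to 3 lipid synthesis genes and 1 to 3 glycerolipid genes. Without both normoosmotic replicate 4 and hypoosmotic replicate 3 the counts were 518, 2 and 2, and against a fold of 1.2 (limma treat) 83, 0 and 0. Over all genes, same-numbered arrays of the groups deviated together with correlations of 0.01, 0.26, 0.12 and 0.06. Differently numbered arrays of the groups had correlations from -0.21 to 0.15. The numbers were not taken to pair the samples, a choice that these values do not settle. Among the 39 genes replicate 4 was the lowest of its group for 27 in normoosmotic and for 20 in hypoosmotic livers. Whether the numbers pair the samples in these genes was not tested. With the replicate number as a block, 1 sterol gene (Mvd, -0.52, limma adjusted p = 0.0264) and 1 fatty acid gene (Elovl6, 0.68, adjusted p = 0.0316) passed and Dgat1 did not (adjusted p = 0.0791). The cause was not tested.

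Signs turned only for genes that did not pass. With array weights the changes were -0.02 for Mvk, -0.06 for Fdft1, -0.04 for Hsd17b7, -0.03 for Acly and -0.01 for Lpin1. Mvk was -0.03 with centred arrays and Acss2 was 0.01 after a further quantile normalization. Without both arrays named above they were -0.13 for Mvk, -0.45 for Fdft1, -0.34 for Hsd17b7, -0.05 for Dhcr7, -0.39 for Acly, -0.10 for Thrsp and -0.11 for Lpin1. Dhcr7 stayed above 0 in the 8 fits without 1 array, at most 0.48. Without both arrays, genes already below 0 stood at -0.59 for Acat2, -0.61 for Idi1, -0.46 for Fdps, -0.56 for Sqle, -0.91 for Msmo1, -0.30 for Nsdhl, -0.20 for Insig1, -0.37 for Acss2 and -0.15 for Fads2. Leaving out 1 array in turn moved 18 genes across 0. Over those 8 fits the change of the sterol genes ran from -0.44 to 0.19 for Acat2, -0.42 to 0.07 for Cyp51, -0.28 to 0.25 for Fdft1, -0.39 to 0.01 for Fdps, -0.31 to 0.31 for Hsd17b7, -0.55 to 0.20 for Idi1, -0.64 to 0.18 for Msmo1, -0.07 to 0.11 for Mvk, -0.16 to 0.08 for Nsdhl and -0.53 to 0.05 for Sqle. Of the others, it ran from -0.24 to 0.21 for Acly, -0.22 to 0.17 for Acss2, -0.10 to 0.08 for Fads2, -0.17 to 0.05 for Insig1, -0.14 to 0.34 for Lpin1, -0.01 to 0.25 for Me1, -0.02 to 0.50 for Scd and -0.06 to 0.38 for Thrsp. Leaving out the dimmest 30% of genes changed no call or sign among the 51 genes named with a test.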

Other observations

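Abcg5 and Abcg8, which form a transporter that exports sterols into bile, also varied widely within the normoosmotic group. Abcg5 read 7.67, 6.08, 6.40 and 5.71 on normoosmotic arrays 1 to 4 and 7.11, 6.53, 7.15 and 5.91 on hypoosmotic arrays 1 to 4. Abcg8 read 5.68, 4.64, 4.81 and 4.32 and then 5.36, 4.84, 5.35 and 4.47. In both genes normoosmotic replicate 1 was the highest of the 8 arrays and normoosmotic replicate 4 the lowest. Neither passed the test, with changes of 0.21 ± 0.39 (SE, limma adjusted p = 0.843) and 0.14 ± 0.28 (SE, adjusted p = 0.853).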
